A study of Mus musculus with 2 samples.

Results

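The 10 core circadian clock genes Arntl, Clock, Per1, Per2, Per3, Cry1, Cry2, Nr1d1, Nr1d2 and Dbp were examined in the newborn mouse heart. They were taken by symbol from 55536 mouse genes, and all 10 were matched. The rule used no measured values, but the list was chosen with earlier results of these data known. The hearts came from male B6CASTF1/J mice, the F1 hybrid of the strains C57BL/6J and CAST/EiJ, at an age of 4 days, with no treatment, mutation or transgene named in the labels. Replicate 2 and replicate 1 are 1 library each of total RNA from whole heart and make up 1 group, so no conditions are compared. The labels number the hearts differently but give them the same donor record, so the spread between the libraries may be that of separate animals or may be technical. The sources used here give no time of day of collection, on which the level of clock genes depends in grown mice.

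The mammalian clock is a loop of transcription and feedback that runs in nearly every cell. The proteins CLOCK and BMAL1, the product of Arntl, pair up and activate genes that carry an E-box, a short DNA motif. Among these are the Per and Cry genes, whose proteins return to the nucleus and repress CLOCK and BMAL1, and Nr1d1 and Nr1d2, whose REV-ERB receptors repress Arntl. DBP is an output activator that binds a motif called the D-box, where NFIL3 competes with it. In adult mouse tissues with a running clock, the transcripts of Arntl peak at the opposite time of day from those of Dbp and Nr1d1.

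These motifs are shown first, because they are the DNA elements through which the arms of the loop act. RefSeq start sites on GRCm38.p6 were matched for 9 of the 10 genes, in 13 windows of 250 bases before the start and 50 from the start on, and Per2 had no entry. Both strands were searched for the E-box CACGTG, the E-box variant CACGTT, the D-box TTATGTAA, the cAMP response motif TGACGTCA and TAGGTCA, a core of the site bound by REV-ERB and ROR receptors. The letters of these motifs do not contain one another. Per3 is shown up to its start because it held 2 D-boxes, here in capitals, with first bases 205 and 158 bases before the start. The stretch is chr4:151044666-151044915 on the minus strand.
Per3 promoter: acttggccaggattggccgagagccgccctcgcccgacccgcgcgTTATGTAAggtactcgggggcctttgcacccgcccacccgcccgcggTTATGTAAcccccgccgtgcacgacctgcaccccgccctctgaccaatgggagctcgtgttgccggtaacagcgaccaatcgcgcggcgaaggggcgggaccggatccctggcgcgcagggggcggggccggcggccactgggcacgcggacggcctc
Of 32851 such windows over all genes, 0.938% held the D-box and 7 windows held it more than once. That count was taken after the Per3 matches were seen.

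The E-box stood in windows of Per1 and Cry1, and its variant in Cry1, Cry2 and Nr1d1. Over all windows, 7.15% held the E-box and 4.68% the variant. The stretches of 30 bases around them are given 5′ to 3′ on the strand of each gene, with the match in capitals. A match to the variant on the other strand reads AACGTG.
Per1 E-box, chr11:69098771-69098800, plus strand: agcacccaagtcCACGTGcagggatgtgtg
Cry1 E-box, chr10:85185097-85185126, minus strand: ggtgccggtggtCACGTGgggtgcatgccg
Cry1 E-box variant, chr10:85185116-85185145, minus strand: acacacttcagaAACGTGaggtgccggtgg
Cry2 E-box variant, chr2:92434218-92434247, minus strand: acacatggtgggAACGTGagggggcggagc
Nr1d1 E-box variant, chr11:98775388-98775417, minus strand: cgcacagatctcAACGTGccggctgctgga
The receptor motif, held by 2.61% of all windows, was found in the members only for Arntl, from base 31 after the start of its second window.
Arntl receptor motif, chr7:113207530-113207559, plus strand: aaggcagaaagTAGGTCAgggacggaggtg
In all, 6 of the 9 genes held at least 1 of the motifs, against 18.1% of all genes with such a window. Counted by window, these were 6 of 13, against 16.1% of all windows. Clock, Nr1d2 and Dbp held none in these windows, and no member held the cAMP response motif, which 1.79% of all windows held. A match is a description of the letters and not of binding.

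**Figure D1:**
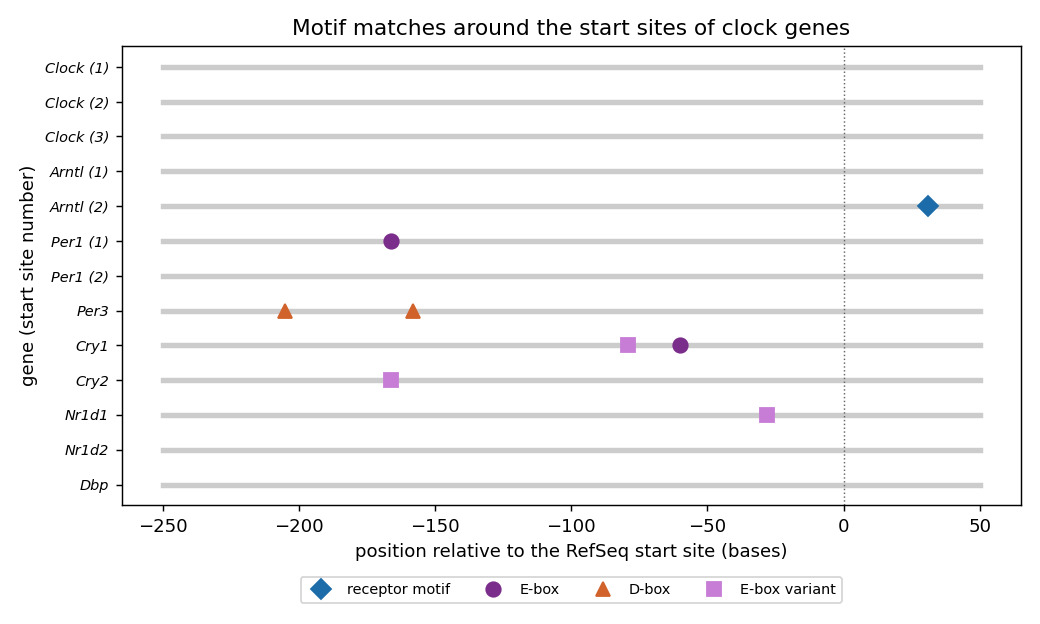
Motif matches in windows around the RefSeq start sites of the clock genes, by the position of their first base relative to the start (x axis, in bases), with a row for each start site. The 2 D-boxes of Per3 lie 205 and 158 bases before its start, and the receptor motif of Arntl lies after the start.

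Levels are given in TPM, a share of all transcripts after division by length, from the gene tables, as mean ± SD over 2 libraries. All 10 genes had 1 TPM or more in each library, against 23.8% of all mouse genes. Their median of 11.045 TPM was close to the 12.25 TPM of the 11867 protein-coding genes that passed the same limit. The clock genes had 11436 expected counts together in replicate 2 and 10666 in replicate 1, of 35744013 and 31512596 on all mouse genes. Single members had from 164 to 3181 counts, where an expected count is the number of reads given to a gene after shared reads are divided.

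The activators differed in level from each other. Clock, whose protein is a bHLH-PAS factor (chromosome 5, 76209868 to 76304792), had 15.6 TPM in replicate 2, against 16.2 in replicate 1, with a mean of 15.9 ± 0.431. Arntl, its partner (chromosome 7, 113207465 to 113314126), had 4.03 TPM in replicate 2, against 2.58 in replicate 1, the lowest mean of the 10 at 3.31 ± 1.03. Clock exceeded Arntl 3.87-fold in replicate 2 and 6.28-fold in replicate 1. Among expressed protein-coding genes, 58.6% lay below Clock and 13.8% below Arntl. Npas2, which can replace Clock, had 5.66 TPM in replicate 2, against 6.35 in replicate 1, so Clock exceeded it by a log2 ratio of 1.39 ± 0.08. The Arntl paralog Arntl2 had 0.59 and 0.69 TPM in those libraries by the gene tables. By the second quantification, a separate estimate from the same libraries, Arntl2 had 3.00 TPM in replicate 2, against 3.48 in replicate 1, so the order of Arntl and Arntl2 in replicate 1 is not settled.

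The repressors of the Per family were unequal. Per1, a gene that responds quickly to hormones and light (chromosome 11, 69095217 to 69109960), had 17.9 TPM in replicate 2, against 11.4 in replicate 1 (14.7 ± 4.58). Per2 (chromosome 1, 91415982 to 91459324) had 4.69 TPM in replicate 2, against 3.77 in replicate 1 (4.23 ± 0.651). Per3, which is dispensable for the central clock in mice (chromosome 4, 151003652 to 151044665), had 5.04 TPM in replicate 2, against 12.9 in replicate 1 (8.97 ± 5.55). Per1 exceeded Per2 in both libraries, 3.82-fold in replicate 2 and 3.03-fold in replicate 1. Per1 exceeded Per3 3.55-fold in replicate 2 but stood at 0.886 of it in replicate 1, where their deposited intervals of TPM overlap. By the second quantification Per1 exceeded Per3 2.47-fold in replicate 2 and stood at 0.666 of it in replicate 1. Their order by point values thus differed between the libraries, but by the gene tables it is not settled in replicate 1.

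The cryptochromes, the partners of PER proteins in repression, were close in level, with Cry1 below Cry2 in both libraries. Cry1 (chromosome 10, 85131700 to 85185064) had 9.30 TPM in replicate 2, against 8.67 in replicate 1 (8.99 ± 0.445). Cry2 (chromosome 2, 92403646 to 92434043) had 12.0 TPM in replicate 2, against 11.9 in replicate 1 (11.9 ± 0.0636), the smallest SD of the 10. Cry1 over Cry2 was a log2 ratio of -0.41 ± 0.06, and the deposited intervals of TPM, whose level is not stated, overlapped in both libraries.

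Nr1d2 and Dbp stood in the upper part of the range and Nr1d1 in the middle. Nr1d2, which encodes REV-ERB beta (chromosome 14, 18204054 to 18239127), had 16.5 TPM in replicate 2, against 25.3 in replicate 1, the highest mean of the 10 at 20.9 ± 6.26. Nr1d1, which encodes REV-ERB alpha (chromosome 11, 98767932 to 98775333), had 11.1 TPM in replicate 2, against 9.26 in replicate 1 (10.2 ± 1.27). Nr1d1 stood below Nr1d2 in both libraries, at 0.671 of it in replicate 2 and 0.366 in replicate 1. Dbp (chromosome 7, 45705088 to 45710203) had 10.5 TPM in replicate 2, against 20.9 in replicate 1 (15.7 ± 7.33). By mean, the order was Nr1d2, Clock, Dbp, Per1, Cry2, Nr1d1, Cry1, Per3, Per2 and Arntl. Neighbours in that order had overlapping values over the libraries, apart from Nr1d2 and Clock, Cry2 and Nr1d1, and Per3 and Per2. In replicate 2 the deposited intervals of TPM overlapped for each of these exceptions. By the second quantification Clock had 20.5 TPM and Nr1d2 18.9 in replicate 2, so their order there is not settled. With 2 libraries, a likeness of pattern to other genes could not be measured.

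**Figure D2:**
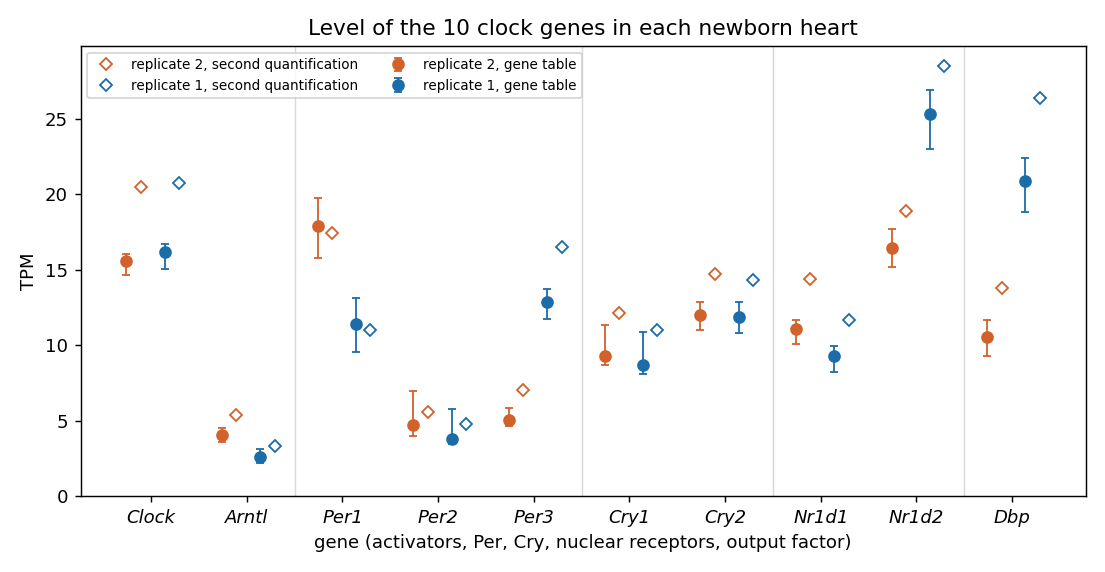
TPM of each clock gene (y axis) in replicate 2 and replicate 1, with filled points for the gene tables, bars for their deposited interval, whose level is not stated, and open diamonds for the second quantification. Per3 and Dbp are lower and Per1 and Arntl higher in replicate 2, while Clock, Cry1 and Cry2 are close in both libraries.

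The libraries differed in several members, in opposite directions. Differences are log2 ratios, replicate 2 over replicate 1, of counts scaled by library size with TMM. Ratios of TPM can differ from them, since TPM also divides by a length that depends on the transcript models. The ratios set 1 library against 1, so no test was run. A sign-flip test on 1 value per library, which these ratios do not give, has a smallest two-sided p of 0.5. Past 1.5-fold, 2 members were higher and 2 lower in replicate 2, which is 4 of 10, where 12.3% of 16271 filtered genes were past 1.5-fold, 4.22% higher and 8.09% lower. Of the 12062 genes averaging 100 counts or more, a limit that all 10 members meet, 6.01% were past 1.5-fold, 2.67% higher and 3.34% lower. The median absolute log2 ratio was 0.41 over the members, 0.19 over all filtered genes and 0.16 over genes averaging 100 counts or more. All 10 clock genes passed the filter on low counts.

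Per3 and Dbp were lower in replicate 2. Per3 had 749 counts in replicate 2 and 1519 in replicate 1, a log2 ratio of -1.13 with an exact 95% counting interval of -1.26 to -1.01. It was the only member past 2-fold, on the lower side. Past 2-fold were 3.06% of all filtered genes, 0.842% higher and 2.22% lower, and 1.08% of those averaging 100 counts or more, 0.481% higher and 0.597% lower. Dbp had 420 counts in replicate 2 and 755 in replicate 1, a log2 ratio of -0.96 (-1.14 to -0.79). Among genes averaging 100 counts or more, 99.3% had a smaller absolute ratio than Per3 and 98.7% a smaller one than Dbp. Nr1d2 was lower by less, with a log2 ratio of -0.38 (-0.47 to -0.29).

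Arntl and Per1 were higher in replicate 2. Arntl had 319 counts in replicate 2 and 164 in replicate 1, a log2 ratio of 0.84 (0.57 to 1.12). Per1 had 1599 counts in replicate 2 and 884 in replicate 1, a log2 ratio of 0.74 (0.62 to 0.86). Among genes averaging 100 counts or more, 98.0% had a smaller absolute ratio than Arntl and 97.0% a smaller one than Per1. Nr1d1 had a log2 ratio of 0.44 and Per2 of 0.31, both short of 1.5-fold. Cry1 at 0.20, Clock at 0.17 and Cry2 at 0.16 lay near the median absolute ratio of all genes. The counting intervals of all 10 left out 0, as did those of 45.6% of all filtered genes and 53.1% of those averaging 100 counts or more, and they cover counting error only. The common biological coefficient of variation over all genes was 15.2%, which gives a spread of 0.31 for such a log2 ratio, and 7 members lay past it, Per2 by less than the printed digits show. Past that spread lay 31.6% of all filtered genes and 23% of those averaging 100 counts or more.

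Members of the Per family, and the REV-ERB receptors, had ratios of opposite sign within the family. Per1 and Per2 were higher and Per3 lower in replicate 2, and Nr1d1 was higher while Nr1d2 was lower. Dbp exceeded Arntl, its counterpart at the other end of the daily cycle in adult tissue, 2.61-fold in replicate 2 and 8.10-fold in replicate 1. By the second quantification Dbp exceeded Arntl 2.55-fold in replicate 2 and 7.93-fold in replicate 1. Nr1d1 exceeded Arntl 2.74-fold in replicate 2 and 3.59-fold in replicate 1.

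**Figure D3:**
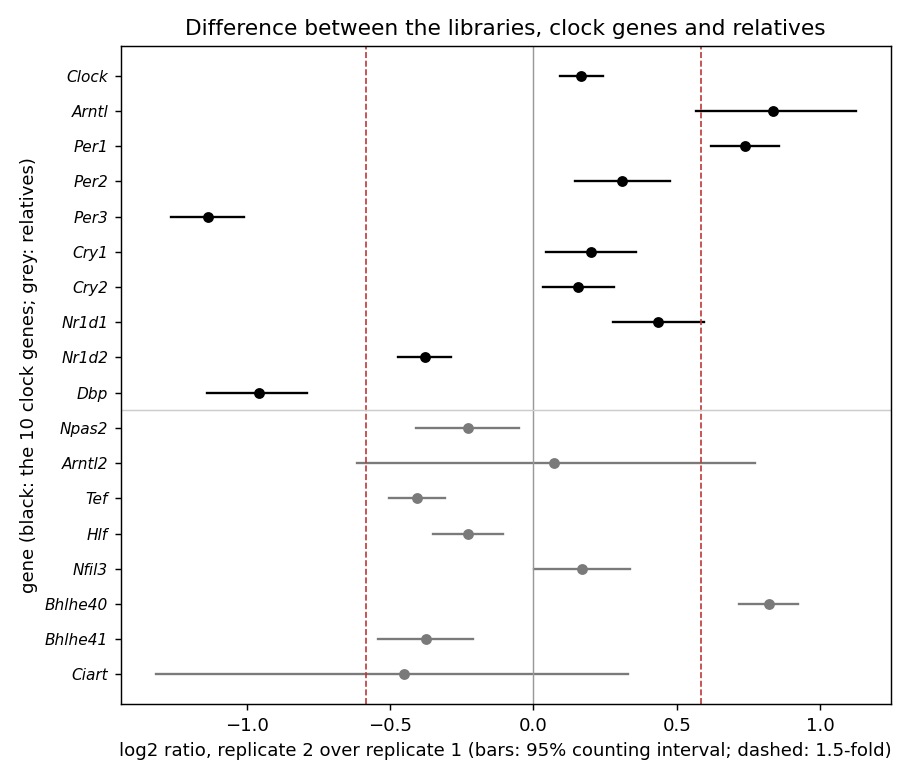
Log2 ratio of replicate 2 over replicate 1 (x axis) for the 10 clock genes in black and some of their relatives in grey, with 95% counting intervals as bars and 1.5-fold as dashed lines. Per3 and Dbp lie beyond the lower line and Arntl, Per1 and the relative Bhlhe40 beyond the upper line.

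**Figure D4:**
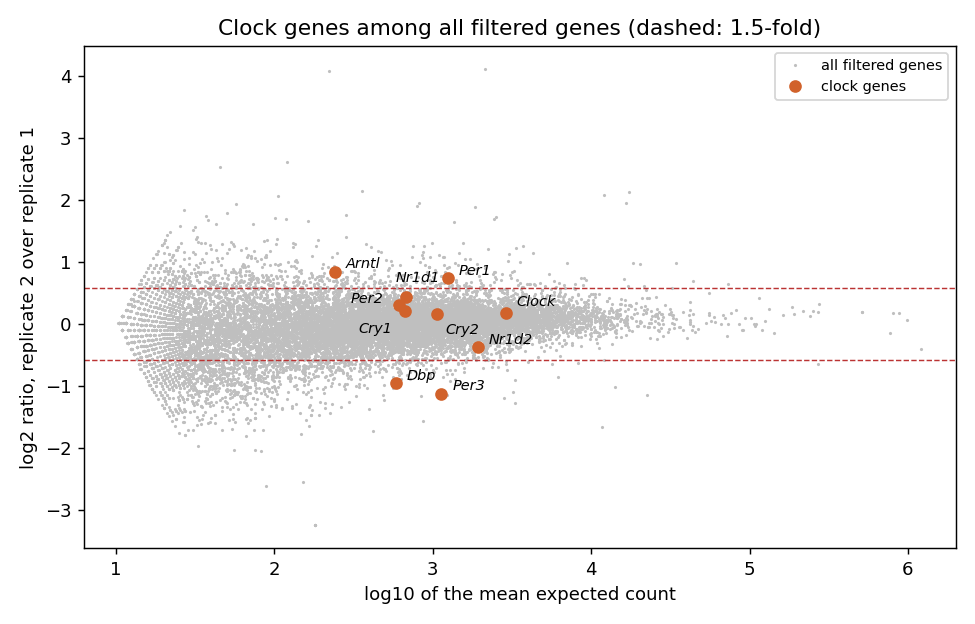
Log2 ratio of replicate 2 over replicate 1 (y axis) against the log10 mean expected count (x axis) for all 16271 filtered genes in grey and the clock genes in orange. Per3, at -1.13, and Dbp, at -0.96, lie below the bulk of genes of like count, and Arntl and Per1 above it.

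The deposited intervals of TPM did not overlap between the libraries for 6 of 10 members, Arntl, Per1, Per3, Nr1d1, Nr1d2 and Dbp, as for 23.1% of all filtered genes and 27.2% of those averaging 100 counts or more. For Per3 they were 4.63 to 5.83 TPM in replicate 2 and 11.7 to 13.7 in replicate 1. For Clock, with 14.7 to 16.1 TPM in replicate 2 and 15.1 to 16.7 in replicate 1, they overlapped. The TPM of all 10 members lay inside its own interval in both libraries.

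Relatives of the members in the loop were compared next, from lists of 49 further pathway genes. Of these, 5 were past 1.5-fold higher in replicate 2, against 4.22% of all filtered genes, and 0 past 1.5-fold lower, against 8.09%. The list of D-box factors held Tef and Hlf, paralogs of Dbp, and their antagonist Nfil3, and none of the 3 was past 1.5-fold by counts. Tef had 17.0 TPM in replicate 2, against 28.15 in replicate 1, with a log2 ratio of counts of -0.41. Hlf had 7.96 TPM in replicate 2, against 10.35 in replicate 1, at -0.23, and Nfil3 had 11.6 and 11.3 TPM, at 0.17. The deposited intervals of TPM did not overlap between the libraries for Tef, but did for Hlf and Nfil3. Dbp stood below Tef in both libraries, at 0.620 of it in replicate 2 and 0.742 in replicate 1. Dbp exceeded Hlf 1.32-fold in replicate 2 and 2.02-fold in replicate 1, while it was at 0.906 of Nfil3 in replicate 2, where their deposited intervals overlap, and 1.85-fold above it in replicate 1.

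Among further E-box repressors, 1 of 3 was past 1.5-fold, against 12.3% of all filtered genes and 6.01% of those averaging 100 counts or more. Bhlhe40, which encodes the repressor DEC1, had 31.1 TPM in replicate 2, against 18.8 in replicate 1, at a log2 ratio of 0.82. Its paralog Bhlhe41 had 5.35 TPM in replicate 2, against 7.30 in replicate 1, at -0.38. Ciart, a repressor of CLOCK and BMAL1, had 0.70 TPM in replicate 2, against 0.95 in replicate 1 on 24.0 and 31 counts, at -0.45, and its counting interval of -1.32 to 0.33 holds 0. Rora, a receptor that activates at the site of the REV-ERB proteins, at 7.58 TPM in replicate 2, against 8.90 in replicate 1, was exceeded by Nr1d2 2.17-fold in replicate 2 and 2.85-fold in replicate 1. Rorb, the form of brain and retina, had 0.11 TPM in replicate 2, against 0.12 in replicate 1.

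The enzymes and cofactors that act on clock proteins were within 1.5-fold between the libraries by counts. None of 7 kinases, 6 ubiquitin pathway genes and 10 cofactors was past it. Past it were 12.3% of all filtered genes and 6.01% of those averaging 100 counts or more, so few would be in lists of this size. The kinases had log2 ratios from -0.05 to 0.14, and the casein kinases that phosphorylate PER proteins were well above their substrates, with Csnk1d at 38.6 TPM in replicate 2, against 39.4 in replicate 1 and Csnk1e at 41.8 and 45.8 TPM. Usp2, a protease whose transcript cycles in many tissues, had 30.5 TPM in replicate 2, against 49.1 in replicate 1, with a log2 ratio of counts of -0.26. The cofactor Ep300 had 17.6 TPM in replicate 2, against 28.2 in replicate 1, also with a log2 ratio of counts of -0.26. The deposited intervals of TPM did not overlap between the libraries for Usp2, Ep300 and Sfpq. The cofactor ratios ran from -0.31 for Sfpq to 0.31 for Thrap3.

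Genes known to be clock controlled in heart or liver had 1 of 7 past 1.5-fold, near the 12.3% of all filtered genes. It was Lonrf3, with 1.24 TPM in replicate 2, against 0.63 in replicate 1 on 88 and 41 counts. Klf15, a factor that links the clock to heart rhythm, had 4.87 TPM in replicate 2, against 6.81 in replicate 1, at -0.36, and its target Kcnip2 had 35.7 and 32.0 TPM, at 0.26. The list of clock input held genes that respond to glucocorticoids or cAMP, signals that also induce Per1, and Creb1, which encodes a cAMP-responsive factor. Of its 8 genes, 3 were past 1.5-fold higher in replicate 2, against 4.22% of all filtered genes and 2.67% of those averaging 100 counts or more. These were Sik1, with 31.2 TPM in replicate 2, against 11.1 in replicate 1 (log2 ratio 1.69), Zbtb16, with 10.35 and 5.44 TPM (1.16), and Sgk1, with 31.0 and 21.5 TPM (0.78). The glucocorticoid targets Fkbp5 (0.19) and Tsc22d3 (0.03) were not past it, nor was Dusp1 (0.33). Klf9 (-0.07) and Creb1 (-0.43) were lower in replicate 2, short of 1.5-fold. The part of these signals in the difference of Per1 was not tested.

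Which transcript models held the reads was read from the first transcript tables, where the 10 genes have 44 models. The model with the largest share of a gene's TPM was the same in both libraries for all 10, with a median share of 67.1%. By the mean of the libraries the second quantification had the same leading models, although Per1-206 led in replicate 2 there. For Per2, Cry1 and Nr1d1 nearly all TPM lay on 1 model. Per2-201 held 95.4% ± 6.48, Cry1-201 held 95.4% ± 1.66 and Nr1d1-201 held 93.7% ± 3.29. Clock was divided between Clock-201 of 7478 nt, with 41.1% ± 6.26, and Clock-205 of 9744 nt, with 30.4% ± 0.856. Dbp-201 held 51.7% ± 7.78 and the shorter coding model Dbp-204 held 30.4% ± 2.46.

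The models of Per1 were the least settled. Per1-201 held 47.0% of its TPM in replicate 2 and 41.5% in replicate 1 in the first tables, but 13.3% and 60.4% in the second. Per1-206 held 0% in replicate 2 and 14.02% in replicate 1 in the first tables, but 49.98% and 13.1% in the second. The 496 nt model Per1-204 held 28.8% ± 0.237 of TPM in the first tables, on 59.4 counts in replicate 2 and 31.6 in replicate 1, and 0% in the second. The level of Per1 as a whole gene differed little, with a mean of 14.2 TPM by the second quantification, against 14.7 in the gene tables.

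Models that retain an intron held part of 6 members, with medians of 17.5% of TPM in replicate 2 and 22.1% in replicate 1. The share was lower in replicate 2 for 4 of the 6. Over 6874 protein-coding genes with such a model and a mean of 100 counts or more, the medians were 8.89% in replicate 2 and 11.7% in replicate 1, and 70.9% of genes were lower in replicate 2. The retained-intron models of Per3 together held 21.6% of its TPM in replicate 2 and 32.9% in replicate 1, the highest share of the 10 in replicate 1. Per3-202 had 0.60 TPM in replicate 2, against 2.43 in replicate 1, and the coding model Per3-201 had 3.47 and 7.64 TPM, so both kinds of model were lower in replicate 2. For Dbp the share went the other way, with 21.7% in replicate 2 and 14.2% in replicate 1. Genes of the annotation's sense-intronic type took 0.0198% of mouse-gene counts in replicate 2 and 0.0306% in replicate 1, and their part in the differences of clock genes was not tested.

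**Figure D5:**
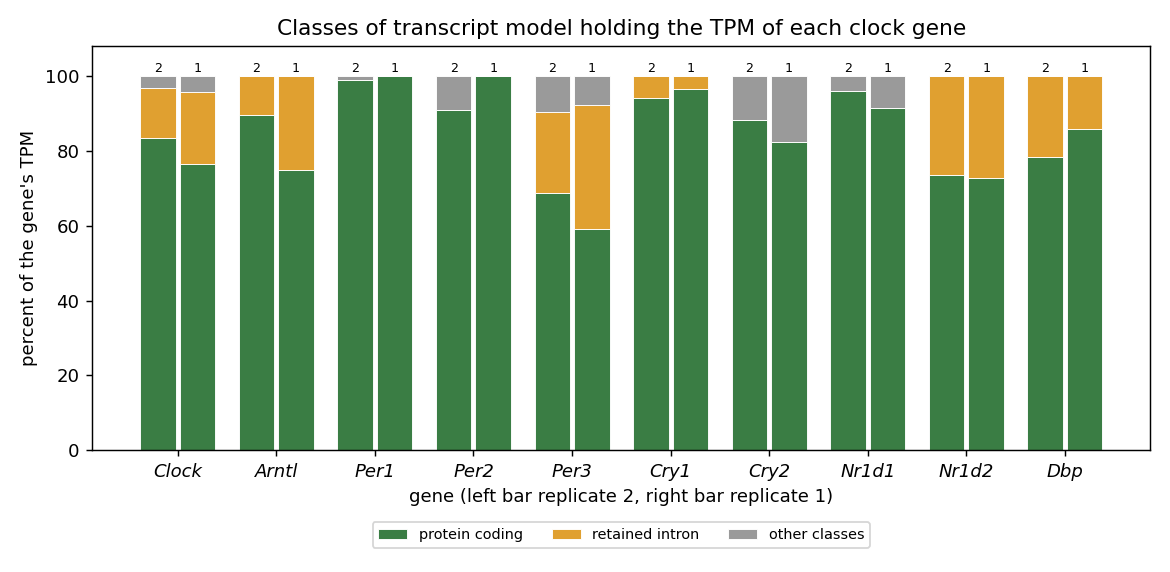
Share of each clock gene's TPM (y axis, in percent) held by protein-coding models, retained-intron models and other classes in the first transcript tables, with replicate 2 as the left bar and replicate 1 as the right bar. Retained-intron models hold 21.6% of Per3 in replicate 2 and 32.9% in replicate 1.

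Annotated genes overlapped 6 members. The end of Nr1d1 shares 1075 bases with Thra, the thyroid hormone receptor gene on the other strand, which had 4401 counts in replicate 2 and 3568 in replicate 1. Dbp shares 737 bases with Sphk2 on the other strand, which had 595 counts in replicate 2 and 494 in replicate 1. Per3 lies inside the span of Camta1 on the same strand, which had 63.9 TPM in replicate 2, against 83.75 in replicate 1. Inside Clock lie Ube2n-ps1, a processed pseudogene on the same strand with 513 counts in replicate 2 and 488 in replicate 1, and the locus Gm43658 with 54 and 67 counts. Loci on the other strand within Arntl (Gm45355) and Cry2 (D930015M05Rik) were listed at 0. The libraries were stranded per the labels, but the sources used here do not say whether counting used the strand, so overlapping reads on opposite strands may be uncertain. Strand cannot separate overlapping reads on the same strand, as for Per3 within Camta1 and the loci inside Clock. The part of such reads in the counts of Per3 and Clock was not tested. For 9 of 10 members the deposited posterior SD of the gene count was 0 and the counts were whole numbers, and Nr1d2 was the exception.

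The second quantification was used as a further check on the members. It gave a higher mean TPM for 9 of 10, by a median of 1.28-fold over all 10, against 1.37-fold over all genes averaging 1 TPM or more by either quantification. Per1 was the exception at 0.971. For 0 of the 10 did the quantifications differ past 1.5-fold the same way in each library, against 30.5% of those genes, 26.2% higher and 4.24% lower by the second. By its counts the log2 ratios between the libraries kept their sign for all 10 members, with 4 past 1.5-fold.

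The tissue label was checked on marker lists for the cell types a heart sample could hold. All 6 cardiomyocyte markers were expressed, with a summed TPM of 27611 in replicate 2 and 29853 in replicate 1, and all 5 endothelial, 5 fibroblast, 5 mural and 5 macrophage markers had 1 TPM or more in both. Among sums above 10 TPM, those that differed by the largest ratio were of 5 red cell genes, with 3784 TPM in replicate 2, against 1018 in replicate 1, and of 5 brown fat genes, with 49.4 and 27.2 TPM. Of the red cell genes, Slc4a1 was slightly lower in TPM, at 3.02 and 3.42. Its log2 ratio of counts was 0.24, with a counting interval of -0.04 to 0.53 that holds 0. Cidea made nearly all of the brown fat sum in replicate 1 and was alike in both, at 27.05 and 26.6 TPM. The others were much higher in replicate 2, with Ucp1 at 8.94 and 0 TPM, Car3 at 9.22 and 0.55, Plin1 at 2.12 and 0, and Adipoq at 2.06 and 0.09. Ucp1 and Plin1 had 0 counts in replicate 1. Fibroblast markers summed to 1287 TPM in replicate 2, against 921 in replicate 1, although Tcf21 was lower, at 18.7 and 21.6 TPM. Mural markers summed to 773 and 481 TPM, and most of that difference was Acta2, at 631 and 341 TPM. Rgs5 (88.5 and 84.9) and Myh11 (7.12 and 5.57) were higher by less. Pdgfrb (23.6 and 24.6) and Cspg4 (23.3 and 25.3) were slightly lower in TPM. Lung markers had 3 of 5 at 0 in replicate 2, and 1 of 5 skeletal muscle markers, Myod1, was at 0 in both. Lung (0.67 and 3.54), thymus (0.95 and 0.57) and skeletal muscle (0.55 and 0.68) markers summed to under 4 TPM in both, and nerve markers to 5.87 and 3.82. The part of these cell types in the differences of clock genes was not tested. In whole hearts, fewer cells of a type cannot be told apart from less RNA per cell.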

How the data were processed

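Per the labels, each library was made from 300 ng of total RNA with spike-ins whose profile is for stranded, ribosomal-RNA-reduced libraries. Per the file headers, the authors deposited gene and transcript tables of expected counts and TPM in RSEM's columns, and further transcript tables of estimated counts and TPM in kallisto's columns, called the second quantification here and summed per gene. The bounds of an interval of the TPM signal are the authors' and their level is not stated. Deposited notes give mm10 and GENCODE M21. Aligner, versions and settings: not given in the sources used here. Whether reads from CAST/EiJ alleles mapped less well was not tested.

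Expected counts were rounded, filtered with filterByExpr (minimum 10) and scaled by TMM (R 4.3.3 and edgeR 4.0.16, 2 as prior count); 55536 mouse genes entered and 16271 passed. Spike-ins (96), 26248 numbered rows and 1 other row stayed out of library sizes; the last 2 kinds held 1.11e-05% of counts in replicate 2 and 6.31e-06% in replicate 1. Partner ratios are log2 of TPM plus 0.1. Counting intervals are exact binomial at 95% and cover counting error only, since PCR copies are not independent molecules. The fit was tested on simulated data. Alternatives were DESeq2 1.42.0 size factors, spike-in and library-size scaling, no filter, other prior counts and pseudocounts, each library alone and the second quantification. Python 3.11.15, pandas 2.3.3, NumPy 2.4.6, SciPy 1.17.1 and matplotlib 3.10.9 were used.

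The members, gene lists and pairs were chosen with earlier results of these data known. All 10 members and any gene of the pathway lists could be named, with overlapping or neighbouring genes within 1 kb and models holding at least 10% of a member's TPM in either quantification. Some genes of these lists are not reported here.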

Additional observations from a re-analysis of the deposited data

How the results depend on the processing

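No paired analysis was possible because both libraries belong to 1 group. For each of the 10 clock genes the log2 ratio between the libraries kept its sign and moved by less than 0.31 under all scalings, the counts of the second quantification and protein-coding models alone, the last chosen after seeing the data. By TPM of whole genes, Clock alone went the other way. It had 15.6 TPM in replicate 2, against 16.2 in replicate 1, and 20.5 and 20.7 by the second quantification, so its direction is not settled. The number past 1.5-fold stayed at 4, and was 5 with protein-coding models alone, where Nr1d2 was added. The number past 2-fold was 2 in place of 1 with library size only and with protein-coding models alone, Dbp being the second in both cases. Leaving out the filter raised the genes past 1.5-fold to 7171 and past 2-fold to 2584, against 2003 and 498, since genes of few counts enter; with at least 100 counts, a limit chosen after seeing the data, they were 725 and 130, since such genes leave. The median level of 11.045 TPM was 13.6 by the second quantification and 21.4 with TPM over protein-coding genes alone, where a smaller total raises each value, and 10.8 to 11.7 from a single library. The median leading share of 67.1% was 81.3% of expected counts, where length is not divided out, and 63.0% to 71.1% from a single library. Of the 16 partner pairs, 10 had the first gene higher in both libraries, 8 did by the second quantification and 11 from either library alone. The mean log2 ratio of Per1 over Per3, 0.82, was -0.17 from replicate 1 alone, and that of Dbp over Nfil3, 0.37, was -0.14 from replicate 2 alone. By the second quantification, Arntl over Arntl2 was -0.06 and Nr1d1 over Rora -0.01 in replicate 1, against 1.76 and 0.06 by the gene tables.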
